A study of Sus scrofa with 37 samples.

Results

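The NF-kB feedback genes described here are the genes through which the inflammatory transcription factor NF-kB restrains or reshapes its own activity. A list of 9 symbols was matched by name to the 9418 rows of the deposited gene count matrix. It found 7 rows, for NFKBIA, NFKBIZ, NFKB1, NFKB2, RELB, TNFAIP3 and BIRC3, and all 7 passed the filter on low counts. TNFAIP2 and IRAK3 were not analysed here. The rule uses gene names alone and no measured value, but the list was chosen with earlier results of these data known. Shares of the list that were called are therefore descriptions.

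NF-kB is a family of dimers built from the subunits RELA, RELB, REL, NFKB1 and NFKB2. In resting cells inhibitor proteins of the IkB family, chief among them the product of NFKBIA, hold the dimers in the cytoplasm. Cytokine and pattern-recognition receptors switch on the IKK kinases, which mark the inhibitors for destruction and free RELA-containing dimers (the canonical route), while the kinase NIK acts through a slower, non-canonical route that turns the NFKB2 precursor into a partner of RELB. The freed dimers induce their own inhibitors and several of their own subunits, so the transcripts of these genes are widely read as a trace of recent NF-kB activity. In injured skeletal muscle the pathway is known to be engaged both in muscle fibres and in the leukocytes that enter the tissue.

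The libraries come from skeletal muscle of Bama minipigs, a small pig breed, with a contusion injury. There were 9 control libraries and 4 libraries at each of 7 times after injury, every 4 h from 4 to 24 h and then 48 h, which makes 37 libraries from 8 minipigs. No genotype, age or sex of the animals is given in the sources used here, and every library, controls included, carries the same treatment entry of mechanical damage. The titles are what set the controls apart. Which libraries share an animal is unknown here, so the p-values measure only the spread between these libraries. Total RNA was extracted for sequencing, and each value is the number of read pairs counted on a gene. The spans of NFKBIA, NFKB2 and RELB each overlap that of a long non-coding RNA gene in the RefSeq annotation, and the strand setting of the counting is not stated, so reads of such a pair cannot be told apart. All libraries are bulk tissue, in which fewer cells of a type and less RNA per cell cannot be told apart.

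Column totals ran from 9.86 M to 22.9 M counts, and the totals are those of the rows deposited, not the depth of the libraries. Levels are given as CPM, counts per 1000000 counts of a library after TMM scaling, which corrects each total for differences in composition; they are not per length, so levels of different genes are not compared. The count of a feedback gene in 1 library ran from 25 to 14738. Of 10 muscle fibre markers, 5 had a row, led by CKM and TNNT3, and none of the 5 was at 0 in any group. The libraries also fell into 5 sets that differ in the column total or in the level of C1QBP, NDUFAF8 or ND6, none of them a feedback gene. Times and sets overlap only in part: all 16 h libraries were in set 1, all 48 h libraries in set 5, no 4 h library shared a set with a control, and 12 and 20 h were split evenly between sets 2 and 4.

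The feedback genes followed different courses after contusion. NFKBIA and NFKBIZ, which encode inhibitor-type proteins, were at their highest mean levels at 8 h, with 4 h next. NFKBIA was called below control at 24 h under TMM scaling, but not by column totals or without 24 h replicate 3 or replicate 4. NFKB2 and RELB, the subunits of the non-canonical dimer, did not differ from control beyond the spread at 4 h, were about 4 times the control level at 8 h, and at a similar level at 24 h. BIRC3 peaked at 8 h, TNFAIP3 was highest at 8 and 48 h, and NFKB1 changed least. The plot of the 7 genes in every library shows these courses.

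**Figure D1:**
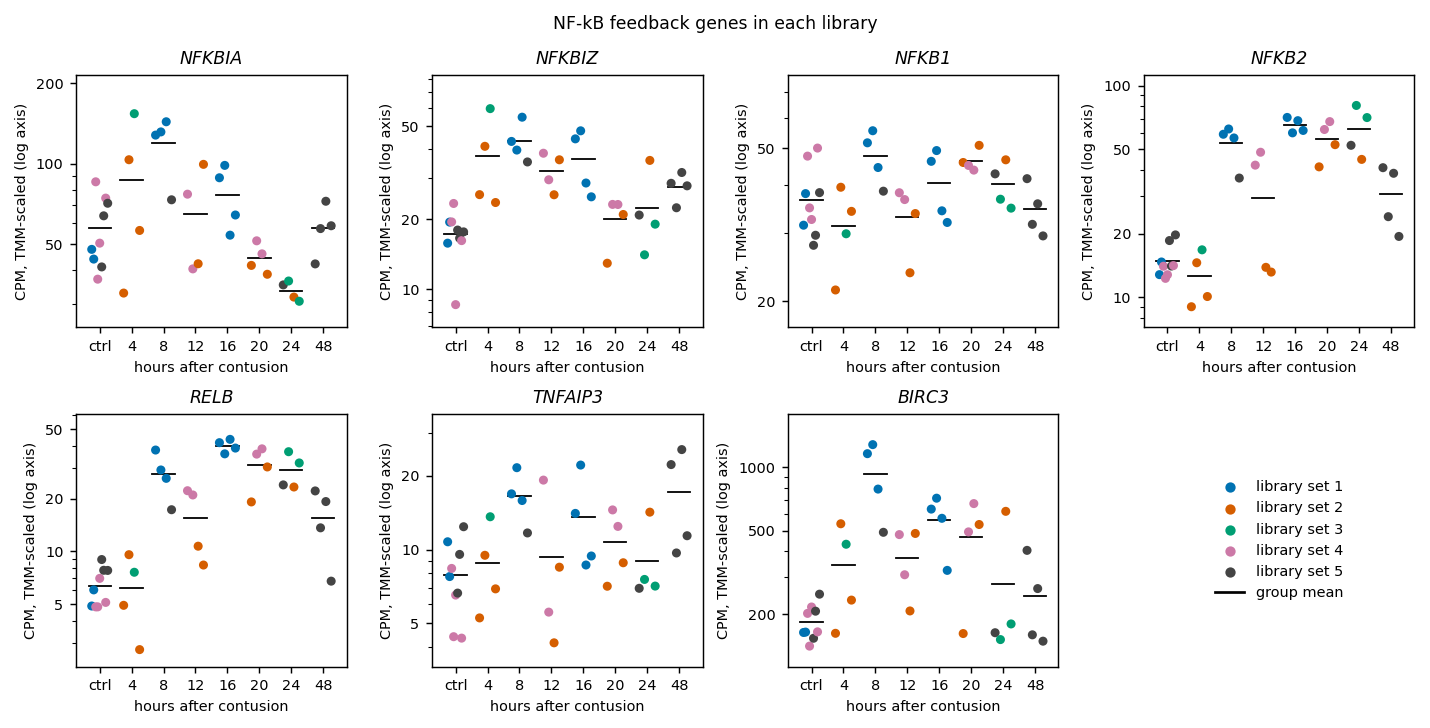
Level of each of the 7 genes in every library (points), in CPM, on a log axis, by hours after contusion; black lines are group means and colours are the 5 library sets. NFKB2 runs from 12.3 to 19.7 CPM in the controls and from 59.9 to 70.9 CPM at 16 h, with no overlap.

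A gene was called higher or lower where the edgeR quasi-likelihood test against the 9 controls, over all 9411 genes that passed the filter, gave a Benjamini-Hochberg adjusted p below 0.05. At 4 h, 1 of the 7 genes, NFKBIZ, was called higher and 0 lower, where 9.22% of all genes were higher and 9.06% lower. At 8 h all 7 were higher, where 25.8% of all genes were higher and 28.2% lower. At 12 h NFKBIZ, NFKB2, RELB and BIRC3 were higher and none was lower, against 16.3% and 14.7% of all genes.

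At 16 h the same 4 genes and TNFAIP3 were higher and none was lower, against 25.3% higher and 27.8% lower among all genes. At 20 h 3 genes, NFKB2, RELB and BIRC3, were higher and none lower, against 25.4% and 26.2%. At 24 h NFKB2 and RELB were higher and NFKBIA was lower, against 26.8% and 27.1%, so the 2 of 7 called higher were close to the share of all genes. Scaled by column totals, 5 of the 7 were higher at 24 h and none was lower. At 48 h NFKBIZ, NFKB2, RELB and TNFAIP3 were higher and none was lower, against 12.8% and 7.45%. Scaled by column totals, the median gene was lower than control at the early times, with -0.18 and -0.13 (4 and 8 h), and higher later, with 0.31, 0.29, 0.46 and 0.34 (16, 20, 24 and 48 h). The split of all genes into higher and lower calls was then 3.76% and 14.2% (4 h), 20.3% and 29.3% (8 h), 38.7% and 14.4% (16 h), 38.5% and 15.5% (20 h), 48.2% and 12.5% (24 h), and 32.4% and 3.17% (48 h), so directions here are relative to the TMM scaling. Over the 7 times together, all 7 genes varied, as did 83.2% of all genes tested. The median log2 fold change of the 7 genes went from 0.17 at 4 h to a peak of 1.32 at 8 h, stood at 0.91 and 1.08 at the next times, fell back to 0.44 and 0.37 by 20 and 24 h, and ended at 0.68. The median over all genes tested lay between -0.07 and -0.02 at every time.

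**Figure D2:**
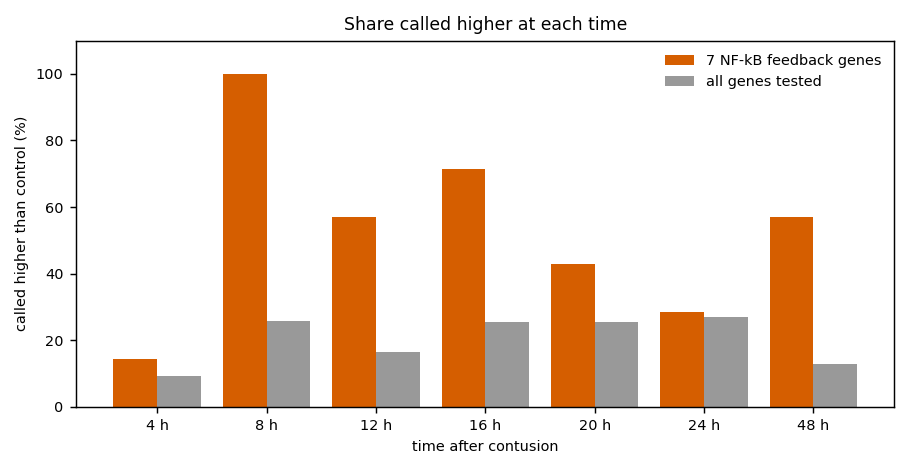
Percentage of the 7 feedback genes (orange) and of all genes tested (grey) called higher than control at each time, edgeR adjusted p below 0.05; there are no error bars because each bar is a share of a fixed list. At 8 h all 7 genes were called higher against 25.8% of all genes, and at 24 h the bars are of similar height.

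NFKBIA encodes IkB-alpha, the inhibitor that is destroyed when the canonical route is switched on and then resynthesised by NF-kB itself (chromosome 7, 64508119 to 64510754, Sscrofa11.1). In the controls it ran from 37.1 to 85.7 CPM with a median of 50.6 CPM. At 4 h the libraries read 32.9, 104, 154 and 56.4 CPM in replicates 1 to 4, so 2 lay above every control and 1 below. At 8 h they read 128, 132, 144 and 73.4 CPM. Only replicate 4 of the 8 h libraries fell within the control range.

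The edgeR log2 fold change of NFKBIA was 0.60 ± 0.27 (SE) at 4 h, adjusted p = 0.120, and 1.05 ± 0.27 at 8 h, adjusted p = 0.00139, a 2.08-fold rise. Without replicate 1 at 4 h the difference was 0.87 and was called, adjusted p = 0.0186. At 12, 16, 20 and 48 h the differences of 0.18, 0.42, -0.36 and 0.01 did not pass. At 24 h all 4 libraries lay below every control, at 35.3, 36.5, 31.8 and 30.7 CPM. The gene fell by 0.77 on the log2 scale there (SE 0.29), adjusted p = 0.0243. Leaving out replicate 3 or replicate 4 gave -0.75 and -0.74 with adjusted p = 0.0606 and 0.0643. Scaled by column totals alone, which moved the median of all genes at 24 h by 0.46, the difference was -0.28, adjusted p = 0.407.

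NFKBIZ encodes IkB-zeta, an inducible nuclear member of the IkB family that works with NF-kB on delayed target genes such as IL6 (chromosome 13, 157261419 to 157273119). The 9 controls ran from 8.61 to 23.4 CPM with a median of 17.7 CPM. The 4 h libraries read 25.5, 41.1, 59.6 and 23.6 CPM, the 8 h libraries 43.1, 39.6, 54.7 and 35.2 CPM. All 8 lay above every control.

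Differences of NFKBIZ from control were 1.12 ± 0.23 at 4 h (adjusted p = 0.00140) and 1.32 ± 0.23 at 8 h (adjusted p = 1.85e-05). At 12 h, with 38.4, 29.5, 25.5 and 36.0 CPM, and at 16 h, with 44.2, 47.9, 28.6 and 24.9 CPM, the groups again did not overlap the controls, and the log2 fold changes were 0.91 and 1.08. The gene was back within the control range in all 4 libraries at 20 h (13.0 to 23.2 CPM). At 24 h replicate 3 read 35.7 CPM beside 14.1 to 20.8 CPM in the others. At 48 h it was higher by 0.68 ± 0.23, adjusted p = 0.0368, with 3 of 4 libraries above every control; without 48 h replicate 1 the adjusted p was 0.144, without replicate 3 it was 0.155, and without control replicate 5 or 8 it was 0.0576 or 0.0555.

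TNFAIP3 encodes A20, an enzyme that strips and adds ubiquitin chains on receptor complexes and so restrains the canonical signal (chromosome 1, 26474158 to 26489771). Its controls ran from 4.35 to 12.4 CPM with a median of 7.76 CPM. At 8 h it read 16.9, 21.6, 15.9 and 11.7 CPM, with 3 libraries above every control and a log2 fold change of 1.07 ± 0.33, adjusted p = 0.00774. At 48 h it read 22.3, 9.69, 25.6 and 11.4 CPM, high in replicates 1 and 3 and within the control range in 2 and 4. The difference there was 1.13 ± 0.33, adjusted p = 0.0153. Without 48 h replicate 1 it was 0.97 (adjusted p = 0.125) and without replicate 3 it was 0.86 (adjusted p = 0.141).

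TNFAIP3 was called at 16 h as well, at 14.1, 22.2, 8.65 and 9.42 CPM, but with an adjusted p of 0.0485 for a log2 fold change of 0.78 ± 0.33. The call was lost in 8 of the 13 fits that left out 1 library of either group, where the adjusted p ran from 0.0278 to 0.314, the highest of them without 16 h replicate 2. Values at 4, 12, 20 and 24 h, with log2 fold changes of 0.17, 0.25, 0.44 and 0.18, did not pass. Replicate 1 at 12 h stood out at 19.2 CPM beside 4.16 to 8.47 CPM in the others.

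BIRC3 encodes cIAP2, a ubiquitin ligase that NF-kB induces and that, with its relatives, attaches chains to RIPK1 in the canonical route and keeps NIK low in the non-canonical one (chromosome 9, 33003570 to 33020252). The controls ran from 142 to 249.7 CPM, with a median of 165 CPM. At 8 h the libraries read 1159, 1279, 787 and 491 CPM, all above every control, a log2 fold change of 2.33 ± 0.35 and a 5.02-fold rise, adjusted p = 2.18e-06. At 16 h they read 633, 713, 572 and 324 CPM, again without overlap, and the log2 fold change was 1.60 ± 0.35, adjusted p = 0.000329.

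At 4 h BIRC3 was high in replicates 2 and 3 (539 and 431 CPM) and within the control range in replicates 1 and 4 (163 and 234 CPM). The difference of 0.88 ± 0.35 did not pass, adjusted p = 0.0778; without replicate 1 it was 1.12, adjusted p = 0.0316. At 12 h, with 479, 309, 208 and 485 CPM, it was higher by 1.00 ± 0.35, adjusted p = 0.0303. That call was lost without replicate 1 (0.85, adjusted p = 0.118) or without replicate 4 (0.84, adjusted p = 0.107). At 20 h it read 162, 493, 672 and 535 CPM, higher by 1.33 ± 0.35, adjusted p = 0.00207, with replicate 1 within the control range.

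At 24 h replicate 3 read 617 CPM while the other libraries read 164, 152 and 180.3 CPM. The difference at 24 h was 0.59, adjusted p = 0.165, and it was -0.17 without replicate 3. At 48 h the libraries read 403, 160.1, 265 and 149 CPM, and the difference of 0.40 did not pass.

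NFKB1, the subunit gene that differed least from control, encodes the precursor of the canonical dimer's DNA-binding partner (chromosome 8, 118391010 to 118478927). The controls ran from 27.9 to 50 CPM and every time overlapped them, with group means between 31.3 CPM at 4 h and 47.5 CPM at 8 h. The 8 h libraries read 51.6, 55.5, 44.5 and 38.6 CPM, a log2 fold change of 0.37 ± 0.16, adjusted p = 0.0469. The call at 8 h was lost in 10 of the 13 fits that left out 1 library. In those 10 fits the values ran from 0.29 to 0.40, with adjusted p up to 0.179. The largest other difference, 0.34 ± 0.16 at 20 h, did not pass (adjusted p = 0.0749).

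NFKB2 encodes the precursor that NIK signalling trims into the DNA-binding partner of RELB (chromosome 14, 113406412 to 113414177). Its 9 controls ran from 12.3 to 19.7 CPM with a median of 14.1 CPM, and the 4 h libraries, at 9.03, 14.6, 16.8 and 10.1 CPM, were no higher. At 8 h they read 59.0, 62.5, 56.7 and 36.6 CPM. At 16 h they read 70.9, 59.9, 68.4 and 61.5 CPM. Every library at both times exceeded every control.

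At 20 h NFKB2 read 41.4, 62.1, 67.7 and 52.7 CPM and at 24 h 52.3, 80.7, 44.9 and 70.8 CPM, again without overlap. The log2 fold changes were 1.86 ± 0.24 at 8 h, 2.14 ± 0.24 at 16 h, then 1.92 ± 0.24 at 20 h and 2.07 ± 0.24 at 24 h, which is 3.63 to 4.40 times the control level, with adjusted p between 5.78e-08 and 3.88e-07. All these calls held under every alternative run and with each library left out in turn. Within sets that held controls the differences were 1.75 at 8 h (4 injured libraries against 5 controls), 2.26 at 16 h (4 against 2) and 2.30 at 20 h (2 against 4). At 24 h only 1 injured library shared a set with controls, and its difference was 1.57.

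At 12 h NFKB2 was above every control in replicates 1 and 2 and within the control range in 3 and 4. Replicates 1 and 2, of set 4, read 42.2 and 48.5 CPM, and replicates 3 and 4, of set 2, read 13.9 and 13.2 CPM. The summed level of pan-leukocyte markers was 414 and 164 CPM in replicates 1 and 2, and 104 and 95.6 CPM in 3 and 4. The muscle fibre markers summed to 36436 and 40617 CPM, and to 60247 and 76794 CPM. Library set and tissue content therefore cannot be told apart among these libraries. The log2 fold change of NFKB2 at 12 h was 1.00 ± 0.25, adjusted p = 0.00362, and 0.62 without replicate 2 (adjusted p = 0.0762). Between the set 4 libraries and the set 4 controls it was 1.76. At 48 h the libraries read 41.0, 24.1, 38.6 and 19.4 CPM, higher by 1.06 ± 0.25, adjusted p = 0.00316. Without 48 h replicate 1 this was 0.88 with adjusted p = 0.0595.

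RELB encodes the subunit that pairs with processed NFKB2 and whose own promoter NF-kB drives (chromosome 6, 51444670 to 51480350). Its controls ran from 4.82 to 8.99 CPM with a median of 6.02 CPM, and at 4 h it read 4.92, 9.58, 7.60 and 2.74 CPM, a difference of -0.02 ± 0.30. At 8 h it read 38.0, 29.3, 26.2 and 17.3 CPM, and at 16 h 41.9, 36.2, 43.8 and 39.0 CPM. Both groups lay wholly above the controls.

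At 20 h RELB read 19.2, 36.0, 38.6 and 30.4 CPM and at 24 h 24.0, 37.2, 23.4 and 32.1 CPM. The log2 fold changes were 2.12 ± 0.27 at 8 h, 2.66 ± 0.27 at 16 h, then 2.29 ± 0.27 at 20 h and 2.20 ± 0.27 at 24 h, the 16 h value a 6.32-fold rise, with adjusted p between 7.13e-09 and 2.28e-07. These 4 calls, too, held under every alternative run and with each library left out. At 12 h RELB showed the same split as NFKB2, with 22.3 and 21.0 CPM in replicates 1 and 2 and 10.7 and 8.36 CPM in 3 and 4. The 12 h difference was 1.30 ± 0.28, adjusted p = 0.000954, and replicate 4 was within the control range. At 48 h it read 22.2, 13.6, 19.3 and 6.76 CPM, a difference of 1.29 ± 0.28, adjusted p = 0.00136.

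**Figure D3:**
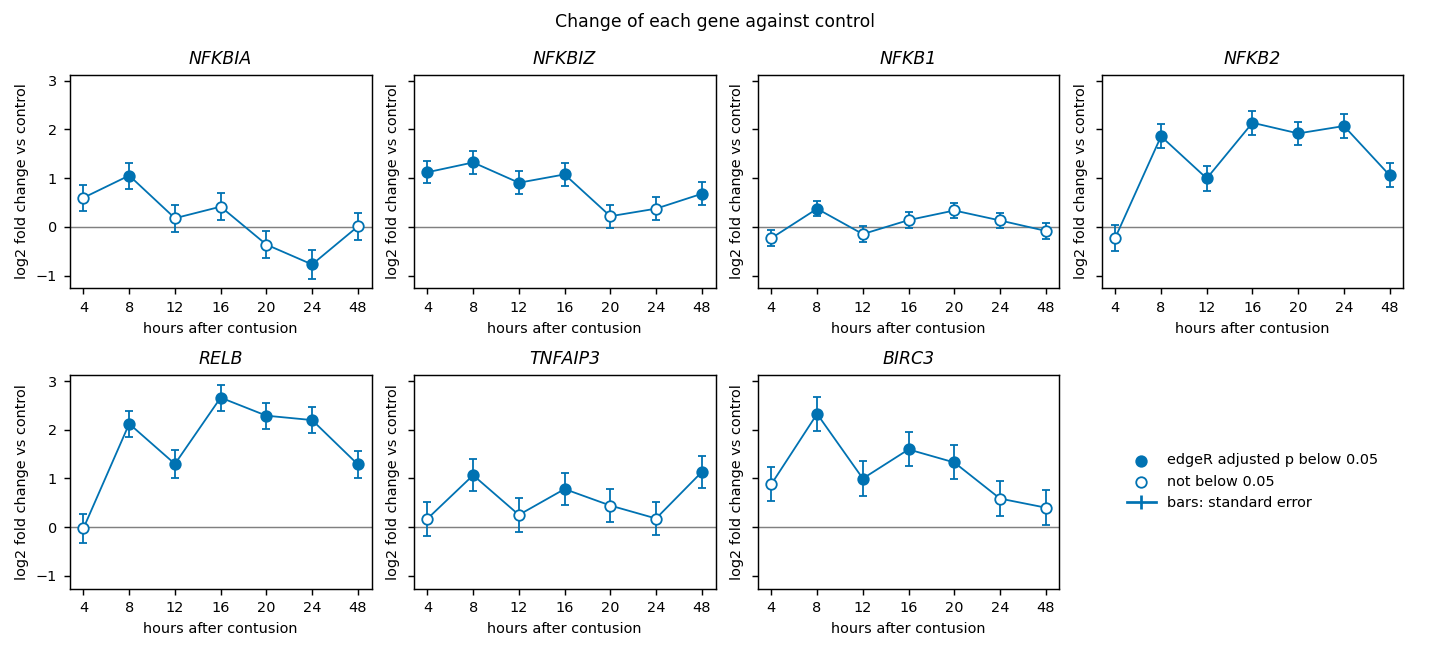
Log2 fold change of each gene against the 9 controls by hours after contusion, from the edgeR fit over all genes; bars are standard errors, filled points have an adjusted p below 0.05 and open points do not. NFKB2 and RELB stay between 1.92 and 2.66 from 16 to 24 h while NFKBIA passes from 1.05 at 8 h to -0.77 at 24 h.

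The 4 calls at 48 h were lost against the controls of the same library set. All 48 h libraries were in set 5, and against the 3 controls of that set 0 of the 7 genes passed in edgeR, and 0 of all genes tested did, where 1906 passed with all controls. The log2 fold changes there were 0.80 for NFKB2 and 0.90 for RELB. With the 5 sets as a term in the fit 2 genes passed at 48 h, NFKB2 at 1.08 and RELB at 1.25, and 1108 of all genes. At 4 h the same fit called 0 of the 7 genes and 259 of all genes, where 1721 were called without the term, and NFKBIZ there was 1.29 with an adjusted p of 0.0512. Against controls of their own sets all 7 genes were called at 8 h, 3 at 12 h, 4 each at 16 and 20 h, and 2 at 24 h, the last from 1 injured library. Of all genes, 3841, 2089, 3404, 3619 and 1090 were called in the same fits.

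When each gene's groups were put in order of their means, neighbours in the order overlapped in range for all 7 genes, apart from NFKBIA at 20 h (38.7 to 51.6 CPM) and 24 h (30.7 to 36.5 CPM). That difference did not pass either, adjusted p = 0.560. For NFKB2 the order from high to low was 16, 24, 20, 8, 48 and 12 h, control, 4 h. For RELB it was 16, 20, 24, 8, 12 and 48 h, control, 4 h. For NFKBIA the order was 8, 4, 16, 12 and 48 h, control, 20 and 24 h, so the late times that were among the highest for the non-canonical subunits were the lowest for IkB-alpha.

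Successive times were compared in the same fit, which also tests whether the change against control differed between them. From 4 to 8 h, 4 of the 7 genes rose and none fell, where 31.3% of all genes moved in either direction. NFKB2 rose by 2.08 ± 0.32 (adjusted p = 9.19e-05), RELB by 2.15 ± 0.35 (adjusted p = 0.000213), BIRC3 by 1.44 ± 0.44 (adjusted p = 0.0137) and NFKB1 by 0.60 ± 0.19 (adjusted p = 0.0168). NFKBIA and NFKBIZ did not pass in this interval, at 0.46 and 0.20. The calls of BIRC3 and NFKB1 were lost without 4 h replicate 1 (1.21 and 0.46) or 8 h replicate 2 (1.25 and 0.52), that of BIRC3 also without 4 h replicate 4 (1.30) and that of NFKB1 also without 8 h replicate 1 (0.56). With 5 library sets as a term none of the 4 passed, and neither did any other gene, where 2950 of all genes passed without the term; 4 and 8 h share no set. NFKB2 was then 1.33, adjusted p = 0.317, and RELB 1.52, adjusted p = 0.424.

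From 8 to 12 h only BIRC3 was called, where 12.1% of all genes moved; it fell by 1.33 (SE 0.44), adjusted p = 0.0426, and the call was lost without 8 h replicate 1, 2 or 3 or 12 h replicate 2 or 3, with values from -1.40 to -1.13. From 12 to 16 h NFKB2 rose by 1.14 ± 0.30 and RELB by 1.36 ± 0.33, adjusted p = 0.0124 and 0.00768, where 14.2% of all genes moved. Without 12 h replicate 3 or replicate 4, NFKB2 was 0.91 or 0.90 and missed the threshold (adjusted p = 0.0628 and 0.0651). With 5 library sets as a term NFKB2 was 0.74 and RELB 0.94 and neither passed, nor did any other gene, where 1339 of all genes passed without the term.

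From 16 to 20 h 0 of the 7 genes passed in edgeR and in DESeq2, where 2.16% of all genes moved, and 2 were below an unadjusted p of 0.05. Those 2, NFKBIA at -0.78 and NFKBIZ at -0.86, had ranges at 20 h wholly below those at 16 h. By p they ranked 1063 and 421 among the 9411 genes tested. Such ranges were not counted over all genes, and 16 and 20 h share no library set. From 20 to 24 h 0 passed in either tool and 0 were below an unadjusted p of 0.05, where 3.21% of all genes moved. From 24 to 48 h NFKB2 fell by 1.01 (SE 0.30) and RELB fell by 0.91 (SE 0.33), adjusted p = 0.0166 and 0.0484, where 19.5% of all genes moved. The calls of both genes were lost without 24 h replicate 2, 48 h replicate 2 or 48 h replicate 4, and that of RELB also without 24 h replicate 4, with values from -0.91 to -0.85 for NFKB2 and from -0.88 to -0.67 for RELB. Without 48 h replicates 2 and 4 together, an alternative added after the data were seen, they were -0.65 and -0.49 and did not pass.

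The ratio of NFKB2 to NFKBIA counts within a library does not depend on how libraries are scaled, and it was lower in every 4 and 8 h library than in any library at 16, 20 or 24 h. Because it is not corrected for gene length, it shows change between libraries and not which transcript is more abundant. In the 9 controls the ratio ran from 0.164 to 0.450, with a median of 0.267. At 4 h it ran from 0.109 to 0.274 and at 8 h from 0.395 to 0.499. It was 0.607 to 1.26 at 16 h, 0.991 to 1.47 at 20 h and 1.41 to 2.31 at 24 h, above every control at each. At 48 h it was back to 0.331 to 0.970, with 2 libraries inside the control range. The 12 h libraries were the most uneven, from 0.132 in replicate 4 to 1.20 in replicate 2. This ratio was chosen after the courses of both genes were seen and is given as a description.

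**Figure D4:**
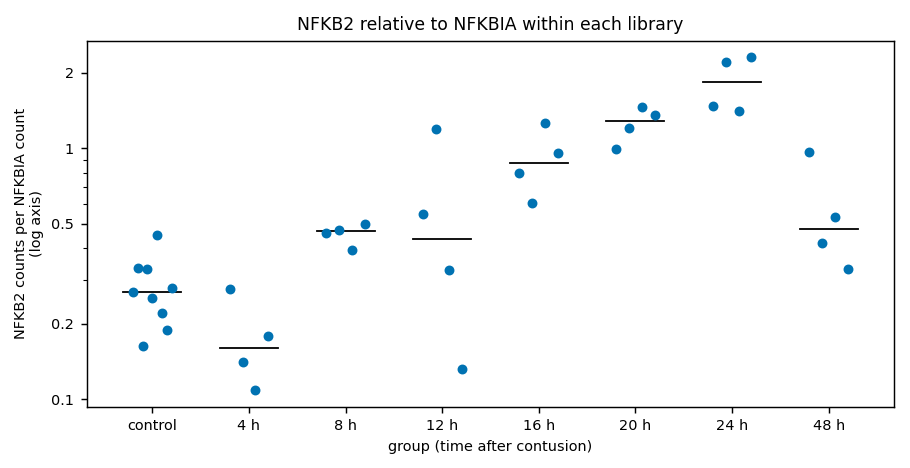
NFKB2 counts per NFKBIA count in each library (points) with the group median (line), on a log axis, by group. The control median is 0.267 and the 24 h median 1.85; 24 h libraries run from 1.41 to 2.31 and no control exceeds 0.450.

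RELB counts per NFKB2 count changed far less. The group medians of that ratio lay between 0.394 in the controls and 0.619 at 16 h, and single libraries between 0.272 and 0.773. Across the 37 libraries the log2 CPM of NFKB2 and RELB had the highest Pearson correlation of the 21 pairs of feedback genes, r = 0.97, and NFKBIA and NFKB2 the lowest, r = 0.02. These are descriptions over libraries that share times, library sets and scaling.

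Libraries of 1 time tended to be high or low for several genes at once. At 8 h replicate 4, the only 8 h library outside set 1, was the lowest for all 7 genes. At 4 h replicates 2 and 3 were between them the highest for all 7. At 48 h replicates 1 and 3 were between them the highest for all 7, and replicate 4 the lowest for 4. At 20 h replicate 1 was the lowest for 5. The map of all 37 libraries shows these as lighter and darker columns.

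**Figure D5:**
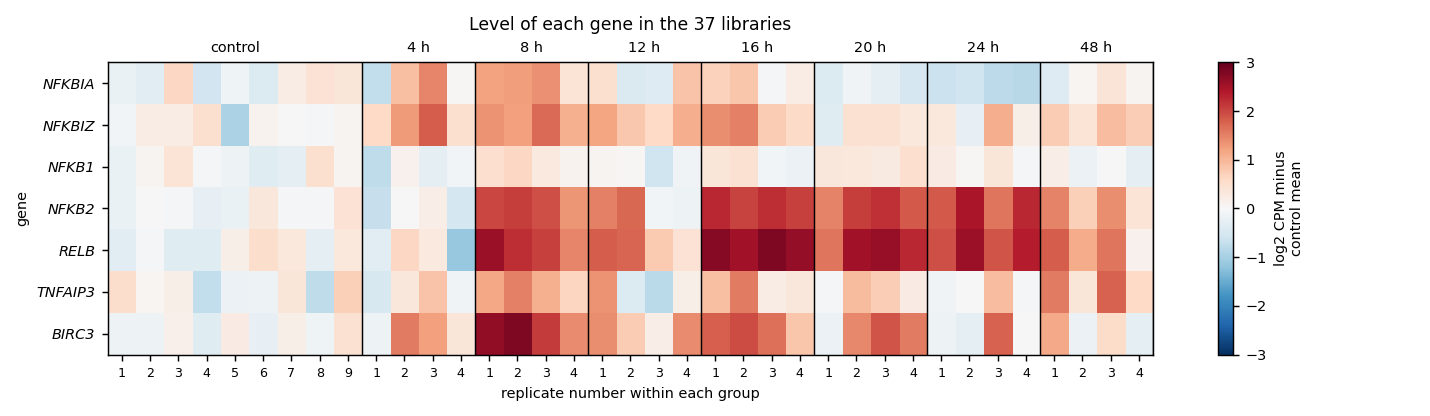
Log2 CPM of each gene minus its mean over the 9 controls, in each of the 37 libraries, grouped by time and ordered by replicate number; red is above and blue below the control mean. NFKB2 and RELB are red from 8 to 24 h, apart from 12 h replicates 3 and 4, where NFKB2 is just below the control mean and RELB pale red, and NFKBIA is blue in all 24 h libraries.

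Leukocyte markers were called higher than control from 8 h on. The summed level of 6 pan-leukocyte markers, led by LAPTM5 and LCP1, ran from 42.7 to 101 CPM in the controls, from 59.7 to 105 CPM at 4 h, from 109 to 785 CPM at 8 h, from 175 to 458 CPM at 16 h and from 91.0 to 673 CPM at 48 h. All 6 were called higher at 8, 16, 20, 24 and 48 h, 5 at 12 h and none at 4 h. Of all genes, 25.8%, 25.3%, 25.4%, 26.8% and 12.8% were higher at 8, 16, 20, 24 and 48 h. The shares at 12 and 4 h were 16.3% and 9.22%. The sums of replicate 4 at 12 h (95.6 CPM) and of replicate 4 at 48 h (91.0 CPM) lay within the control range. None of the 6 was at 0 in any group. The neutrophil list, of which 6 of 12 genes had a row, with CSF3R the highest, ran from 1.37 to 12.3 CPM in the controls and from 18.1 to 298 CPM at 8 h.

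Several libraries that were low for the feedback genes were also low for these markers. In 8 h replicate 4 the pan-leukocyte sum was 109 CPM beside 331 to 785 CPM in the other replicates. At 48 h replicates 1 and 3 read 673 and 499 CPM, and replicates 2 and 4 read 112 and 91.0 CPM. At 24 h replicate 3, high for BIRC3, TNFAIP3 and NFKBIZ, read 514 CPM beside 160.4 to 318 CPM. NFKB2 went another way at 24 h: it was highest, at 80.7 and 70.8 CPM, in replicates 2 and 4, where the pan-leukocyte sum was lowest, at 160.4 and 182 CPM. Those replicates were also the only 24 h libraries of set 3, the set with column totals above 20 M. Leukocyte content and library set therefore cannot be told apart among the 24 h libraries, and the part of either in NFKB2 was not tested.

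The monocyte and macrophage sum of 15 genes, all with a row and led by CD163 and CSF1R, ran from 82.0 to 248 CPM in the controls and from 368 to 681 CPM at 16 h and 315 to 576 CPM at 24 h. The summed level of the 5 muscle fibre markers was 46596 to 89956 CPM in the controls and 15581 to 30210 CPM at 24 h. Fibroblast markers, 8 of 8 tested and led by COL3A1 and COL1A2, summed to 2212 to 8595 CPM in the controls and 862 to 3148 CPM at 8 h, when 7 were called lower and 1 higher. They were also lower for 6 of 8 at 20 h and for 2 of 8 at 12 h. Of all genes, 28.2% were lower and 25.8% higher at 8 h, 26.2% were lower at 20 h and 14.7% at 12 h. Pericyte and smooth muscle markers, 6 of 7 tested and led by RGS5 and ACTA2, summed to 642 to 1254 CPM in the controls and 278 to 428 CPM at 8 h, with 5 of 6 lower. No marker of these lists was at 0 in any group. The part of cell content in the feedback genes' levels was not tested.

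For each feedback gene the genes with the most similar course over the 37 libraries, by Pearson correlation of log2 CPM, were taken from all tested genes. NFKB2 and RELB shared SEPTIN9, a cytoskeletal septin, at r = 0.93 and 0.94. Next came TNIP1, an A20-binding inhibitor of NF-kB, for NFKB2 (r = 0.92) and SQSTM1, an autophagy and signalling scaffold, for RELB (r = 0.93). BIRC3 was closest to BAZ1A and RRN3 (both r = 0.91). NFKBIZ was closest to UGCG (r = 0.88) and HAS1, a hyaluronan synthase (r = 0.85). For NFKBIA, ACKR3, a scavenging chemokine receptor, had r = 0.84. NFKB1 was closest to ST3GAL1 (r = 0.83) and GART (r = 0.82), and TNFAIP3 to AKNA (r = 0.80) and ACTN1 (r = 0.78). The points share times and library sets, so the values describe likeness of course only.

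Other genes of the pathway are given from role lists, with the 4 genes of each list that had the smallest p over the 7 times together. Of 13 ligands, 4 had a row, and TNF, IL1A and IL1B were not analysed here. At 8 h 1 of the 4 was called higher, beside 25.8% of all genes: S100A8, a neutrophil alarmin that also stands in the neutrophil marker list, at 6.68 CPM against 0.307 CPM in the controls. The controls ran from 0 to 1.10 CPM, near the floor, since 3 counts are 0.236 to 0.369 CPM in them. The 8 h libraries ran from 2.10 to 13.0 CPM. IL33, an alarmin of the interleukin family, was higher at 4 h (16.4 against 8.70 CPM) and 20 h (20.0 CPM). IL18 rose to 8.50 CPM at 48 h from 2.24 CPM, and TNFSF12, the ligand TWEAK, fell at 4 h, from 21.4 to 14.1 CPM. All are means.

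Of 31 receptors and adaptors, 25 were tested. At 8 h 19 were called higher and 1 lower, where 25.8% of all genes were higher and 28.2% lower. At 16 h the counts were 19 and 2, beside 25.3% and 27.8% of all genes, and at 4 h 5 and 1, beside 9.22% and 9.06%. The median log2 fold change of the list was 0.33 at 4 h, was 1.47 by 8 h, and then 1.14 at 16 h and 0.71 at 48 h. LTBR, the lymphotoxin receptor that feeds the non-canonical route, rose from 40.2 CPM in the controls to 58.6 CPM at 4 h and 111 CPM at 8 h, and was 75.3 CPM at 24 h. CD14, a co-receptor of TLR4 that is also in the macrophage marker list, rose from 4.30 CPM to 85.8 CPM at 8 h. LY96, its partner at TLR4, rose later, from 4.13 CPM to 20.2 CPM at 24 h. MALT1, a protease that carries antigen receptor signals to NF-kB, fell from 10.3 CPM to 3.48 CPM at 8 h.

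All 12 kinases and kinase partners were tested, and 4 were higher and 1 lower at 8 h, so the share higher was near the 25.8% of all genes. At 16 h 7 were higher and 0 lower, beside 25.3% and 27.8% of all genes, and at 24 h 6 and 0, beside 26.8% and 27.1%. MAP3K14, which encodes NIK, rose from 27.0 CPM in the controls to 69.9 CPM at 4 h (log2 fold change 1.37, adjusted p = 0.000132). Its 4 h libraries ran from 29.2 to 107 CPM, overlapped the controls (18.3 to 38.7 CPM) and share no library set with them. NFKB2 and RELB, at -0.22 and -0.02, did not pass at 4 h, and the difference between the genes was not tested. MAP3K14 was 124 CPM at 8 h (log2 fold change 2.20), 63.0 CPM at 16 h and 33.1 CPM at 48 h. IKBKB, the catalytic IKK subunit of the canonical route, rose later, from 18.7 CPM to 50.8 CPM at 8 h and 95.7 CPM at 16 h. MAP3K8 rose from 1.74 CPM to 33.0 CPM at 8 h, and TBK1 from 23.9 CPM to 51.0 CPM at 24 h.

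The other Rel and IkB genes were 6, all tested, and 5 were higher and none lower at 8 h, 3 and 0 at 16 h and 1 and 0 at 48 h, where 25.8%, 25.3% and 12.8% of all genes were higher. RELA, the main transactivating subunit of the canonical dimer, rose less, from 56.6 CPM to 91.4 CPM at 8 h, a log2 fold change of 0.69, adjusted p = 2.19e-05. BCL3, an atypical nuclear IkB protein, rose from 9.38 CPM to 111 CPM at 8 h and was back at 8.70 CPM at 24 h. NFKBIE rose from 5.34 CPM to 14.3 CPM at 8 h and was 14.8 CPM at 48 h. NFKBIB was 89.9 CPM at 8 h against 48.0 CPM, adjusted p = 0.0412.

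Of 25 other negative regulators, 16 were tested, and 7 were higher and 4 lower at 8 h, 6 and 4 at 16 h, and 6 and 3 at 24 h. The shares of all genes were 25.8% and 28.2%, 25.3% and 27.8%, and 26.8% and 27.1% at these times, so the list's lower calls were near or under the background. TNIP1 rose from 85.4 CPM to 139 CPM at 8 h and 221 CPM at 20 h and was 217 CPM at 24 h. ZC3H12A, the RNase Regnase-1, rose from 5.66 CPM to 87.7 CPM at 8 h and was 13.3 CPM at 24 h. TNIP2 rose from 5.20 CPM to 35.9 CPM at 8 h. OTULIN, which removes linear ubiquitin chains, reached 23.9 CPM at 20 h from 12.4 CPM. The 4 that were lower at 8 h, named here after their values were seen, were CYLD, TAX1BP1, ITCH and COMMD1, with log2 fold changes of -0.46, -0.65, -0.54 and -0.48.

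Of 25 inducible NF-kB target genes, 22 were tested. At 4 h 7 were higher and 0 lower, at 8 h 17 and 1, at 16 h 13 and 1, at 24 h 9 and 3, and at 48 h 7 and 0. Of all genes, 9.22%, 25.8%, 25.3%, 26.8% and 12.8% were higher at these times. PLAU, the urokinase-type activator of plasminogen, rose from 22.0 CPM to 201 CPM at 4 h and 418 CPM at 8 h and was 92.4 CPM at 48 h. PTX3, a secreted pattern-recognition pentraxin, rose from 4.85 CPM to 50.4 CPM at 4 h and 200.2 CPM at 8 h. CSF1, the macrophage growth factor, rose from 19.3 CPM to 72.8 CPM at 4 h and 251 CPM at 8 h. The 4 h libraries ran from 6.97 to 99.5 CPM for PTX3 and from 27.6 to 130 CPM for CSF1. Both overlapped the controls, which reached 9.95 and 30.8 CPM. PLAU ran from 40.6 to 379 CPM at 4 h, above every control. No 4 h library shares a set with a control, and with 5 library sets as a term calls over all genes at 4 h went from 1721 to 259. SOD2, the mitochondrial superoxide dismutase, followed a late course, with 351 CPM in the controls, 363 CPM at 4 h, 595 CPM at 8 h, 2885 CPM at 16 h and 2715 CPM at 24 h. With 5 library sets as a term, 11 of the target genes were higher at 8 h and 5 at 16 h, while calls over all genes went from 5084 to 3966 and from 4995 to 2575.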

How the data were processed

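The authors deposited raw counts per gene symbol for skeletal muscle of control and contused Bama minipigs, 37 libraries in 1 table. Per the submitters' processing notes, the tools were FastQC, MultiQC, Trimmomatic, HISAT2 2.2.1 and HTSeq with the build Sscrofa11.1; their order and settings are not given in the sources used here. Every row has at least 1 library with 101 counts or more, so genes low in all libraries are missing from the totals. Samples were grouped by their titles.

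From these counts, CPM values were computed with TMM scaling in edgeR 4.0.16 (R 4.3.3). Genes were kept by filterByExpr (9411 of 9418), and 1 robust quasi-likelihood model of group was fitted over all libraries, with Benjamini-Hochberg adjustment over all genes. Each time was compared with control and with the time before it. Alternatives used RLE factors, column totals, other filters, DESeq2 1.42.0, limma-voom (limma 3.58.1), a replicate block, library sets and left-out libraries; 1 was added after the data were seen. The 5 sets were defined from the data: a total above 20 M (set 3), C1QBP above 8 CPM (set 1), NDUFAF8 below 4 CPM (set 2), ND6 at or below 32 CPM (set 4), and the rest (set 5).

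Named genes were all members present, the 4 genes of each pathway list with the smallest p over all times, the 2 most correlated genes per member and the 2 highest markers per list; 2 genes that this rule names are not reported here. The members, lists and sets were chosen with earlier results of these data known. On counts simulated for 48 h against control over 9411 genes, the test recovered 70% of 100 genes changed by 1 on the log2 scale and 95% of 100 changed by 2, with 11 false calls. The simulated libraries were independent, with no difference between library sets and no shared animals. These figures therefore do not cover either of those in the real comparison. Gene positions come from the RefSeq table for Sscrofa11.1.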

Additional observations from a re-analysis of the deposited data

Results flagged for a closer look

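Each of the 7 genes was looked at in each of its 8 groups, the controls included, and in 2 of these 56 cases 1 library stood far from the others of its group, where chance alone marks about 1 in 20. Both were 24 h replicate 3, at 14.2 CPM for TNFAIP3 and 617 CPM for BIRC3. That library had the highest pan-leukocyte marker sum of its time, 514 CPM, and was the only 24 h library of set 2; the part of either was not tested.

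The difference from control itself differed between successive times for 9 pairs of gene and interval. From 4 to 8 h it changed by 0.60 for NFKB1, 2.08 for NFKB2, 2.15 for RELB and 1.44 for BIRC3 on the log2 scale. From 8 to 12 h it changed by -1.33 for BIRC3, and from 12 to 16 h by 1.14 for NFKB2 and 1.36 for RELB. From 24 to 48 h it changed by -1.01 for NFKB2 and -0.91 for RELB.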

How the results depend on the processing

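Of 637 values of the 7 genes under the alternatives other than leaving out 1 library, 575 kept direction and side of the threshold, 30 lost the call, 11 gained one and 21 changed sign. Of 637 values with 1 library left out, these were 586, 30, 4 and 17. Every change of sign was of a value not called in the reported fit. NFKB2 and RELB at 8, 16, 20 and 24 h stayed called throughout.

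With column totals, 5 of the 7 genes were called at 24 h, and 0 in the steps from 8 to 12 h and 24 to 48 h (0 and 0), and NFKB1 at 48 h was 0.31. Calls over all genes then went from 1906 to 3348 at 48 h, from 1138 to 648 in the step from 8 to 12 h, and to 118 instead of 203 in that from 16 to 20 h. They went from 5071 to 5716 at 24 h and from 1832 to 1264 in the step from 24 to 48 h. DESeq2 called 4 from 8 to 12 h, and 1540 of all genes. Fits on the compared groups alone called 2 at 4 h, 0 in the step from 8 to 12 h, and 1 each in those that end at 16 and 48 h. Of all genes these fits called 1195 instead of 1721 at 4 h. In the same steps they called 234, 1410 and 903, where 1138, 1339 and 1832 were called in the reported fit. A fold of at least 2 left 1 at 12 h and 1 from 24 to 48 h, and all genes were not counted at that fold.

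With the 5 sets as a term, 0 were called at 4 h, 2 at 48 h, 0 in each of the steps that end at 8, 12 and 16 h, and 1 in the step that ends at 48 h; NFKB2 and RELB at 4 h were 0.44 and 0.52 and NFKB1 at 48 h was 0.13. Of all genes, that fit called 0 in the steps that end at 8, 12 and 16 h and 842 in that which ends at 48 h. With 4 sets, 3 were called at 16 h and 0 in each of the steps that end at 8, 12 and 16 h. In the step that ends at 48 h 1 was called, and NFKB2 and RELB at 4 h were 0.43 and 0.48. Calls over all genes were 2620 at 16 h, and 0, 7, 2 and 1290 in these steps. Without set 2, 0 were called in the steps that end at 12 and 16 h, and 1 in that which ends at 24 h. Calls over all genes there went from 1138 to 243, from 1339 to 64 and from 302 to 109. Calls that involve 4 h are not given, because this fit leaves 1 library there, replicate 3, which is assumed to vary like the other groups. The sign then changed for NFKB2 (0.18) and RELB (0.26) at 4 h, NFKB1 at 12 h (0.030), and TNFAIP3 (-0.13) and BIRC3 (-0.16) at 24 h.

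Against controls of the same set, 0 were called at 48 h, and NFKBIA was -0.082 at 12 h and -0.052 at 48 h, TNFAIP3 -0.47 and BIRC3 -0.33 at 24 h, where 1 injured library was left, and NFKB1 0.095 at 48 h; this was not run at 4 h, which shares no set with the controls, or between successive times. Without totals above 20 M, TNFAIP3 at 4 h was -0.13, NFKBIA at 48 h was -0.0043, and 0 were called from 24 to 48 h. Without 48 h replicates 2 and 4, chosen after seeing the data, NFKBIA at 48 h was -0.00022, NFKB1 at 48 h was 0.076, and 0 were called from 24 to 48 h. Calls over all genes from 24 to 48 h went from 1832 to 799 without totals above 20 M and to 551 without these 48 h replicates. The cause of these changes was not tested.

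With 1 library left out, the genes called ran from 1 to 3 at 4 h and from 1 to 4 at 48 h. For the steps between times they ran from 2 to 6 (ending at 8 h), 0 to 5 (12 h), 1 to 3 (16 h), 0 to 1 (24 h) and 0 to 3 (48 h). Calls over all genes in these fits are not given here. Values that changed sign ran from -0.29 to 0.22 for RELB at 4 h, -0.13 to 0.35 for TNFAIP3 at 4 h, -0.10 to 0.33 for NFKBIA at 12 h, -0.38 to 0.49 for TNFAIP3 at 12 h, -0.13 to 0.29 for TNFAIP3 at 24 h, -0.17 to 0.78 for BIRC3 at 24 h and -0.13 to 0.13 for NFKBIA at 48 h.

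The replicate numbers showed no clear pairing of the libraries. Deviations of same-numbered libraries correlated at a mean r of 0.0167 (-0.60 to 0.58), and those of other pairs at -0.0040 (-0.69 to 0.73). In all, 9 of 28 libraries were closest to their own number. Library sets were not corrected for in these deviations, so whether numbers mark shared animals remains unknown. With the replicate block, 0 of the 7 genes and 1144 of all genes were called from 8 to 12 h. RELB at 4 h was then 0.23, and NFKBIA at 24 h was -0.63 with an edgeR adjusted p of 0.133. The lowest count of any of these genes in a library was 25.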
